A study of Mus musculus with 9 samples.

Results

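Glycolysis splits glucose into pyruvate in the cytosol and yields ATP without oxygen, and lactate dehydrogenase turns the pyruvate into lactate while restoring the NAD+ that the pathway needs. Most steps are carried by a choice of isozymes, encoded by separate genes that differ in tissue distribution and regulation. Tumour cells, activated T cells, macrophages and neutrophils all draw heavily on the pathway, so a whole tumour holds many cell types that transcribe these genes. The genes described here are Hk1, Hk2, Gpi1, Pfkl, Pfkp, Aldoa, Tpi1, Pgk1, Eno1 and Ldha, chosen by name. Of these 10 names, 8 stand in the gene name column of a count table of 44806 entries. Pgk1 and Eno1 do not, and were taken from the protein-coding entry whose deposited description names that gene; counts of members called are therefore over the 8 named entries, and the 2 others are added where stated.

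The material was tumours of MB49, a mouse bladder cancer cell line that the labels describe as overexpressing HER2, a receptor tyrosine kinase. There were 3 libraries from mice given Lipo-TriTE, 3 from mice given Lipo-BiTE and 3 from mice given PBS, and no group received the carrier alone. A BiTE, or bispecific T cell engager, binds a T cell on one side and a target cell on the other; by its name a TriTE has a further binding arm. The labels give neither the binding targets, the dose, the times nor the age of the mice, and do not say that replicates came from separate animals, so the spread between libraries, and every p-value below, may be partly technical. All 9 libraries share the MB49 tumour and its added HER2.

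Libraries held 13152783 to 20273548 counts, and the 10 genes together took 0.662% to 1.05% of them. The design text names T cells sorted by CD3, but the protocol starts from frozen tumour tissue and has no sorting step. Krt8, a keratin of epithelial cells, exceeded Cd3e, which belongs to the T cell receptor complex, in all 9 libraries. The ratio of Krt8 to Cd3e in CPM, read counts scaled to library size, was 1.5 to 4.67 in Lipo-TriTE libraries, 7.52 to 28.7 in Lipo-BiTE libraries and 95.2 to 164 in PBS libraries. The values below are therefore described as those of mixed tumour tissue. In such bulk samples, a change in the share of a cell type and a change in RNA per cell cannot be told apart.

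Per kilobase of the deposited gene length, the enzymes of the lower pathway stood far above those of the entry steps. Averaged over all 9 libraries, Ldha had 558 ± 93.3 CPM per kb, Eno1 488 ± 75.6, Aldoa 462 ± 88.3, Pgk1 445 ± 70.6 and Tpi1 343 ± 78.2 CPM per kb (SD, n = 9). Gpi1 followed with 114 ± 27.4 and Pfkl with 82.7 ± 21.7 CPM per kb. Hk2 with 41.3 ± 15.4, Pfkp with 36.5 ± 17.1 and Hk1 with 35.3 ± 6.8 CPM per kb came last. Among the first 4 genes, and among the last 3, neighbours differed by less than their spread over libraries. Even the hexokinases and Pfkp ranked high: Pfkp, whose rank varied most, lay between the 77.2 and the 94.5 percentile of tested genes within a library, and Ldha between the 99.5 and the 99.7 percentile.

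The genes differed more in how variable they were than in whether they were detected. Between the highest and the lowest library, Pfkp spanned 4.2-fold, Hk2 2.78-fold and Tpi1 2.37-fold, while Eno1 spanned 1.64-fold and Ldha 1.72-fold. Pfkp also had the largest standard deviation between group means of the 10 genes, 0.70 on the log2 CPM scale, against a standard deviation of 0.32 within groups. Pgk1 lay at the other end, with 0.22 between groups and 0.21 within them.

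**Figure D1:**
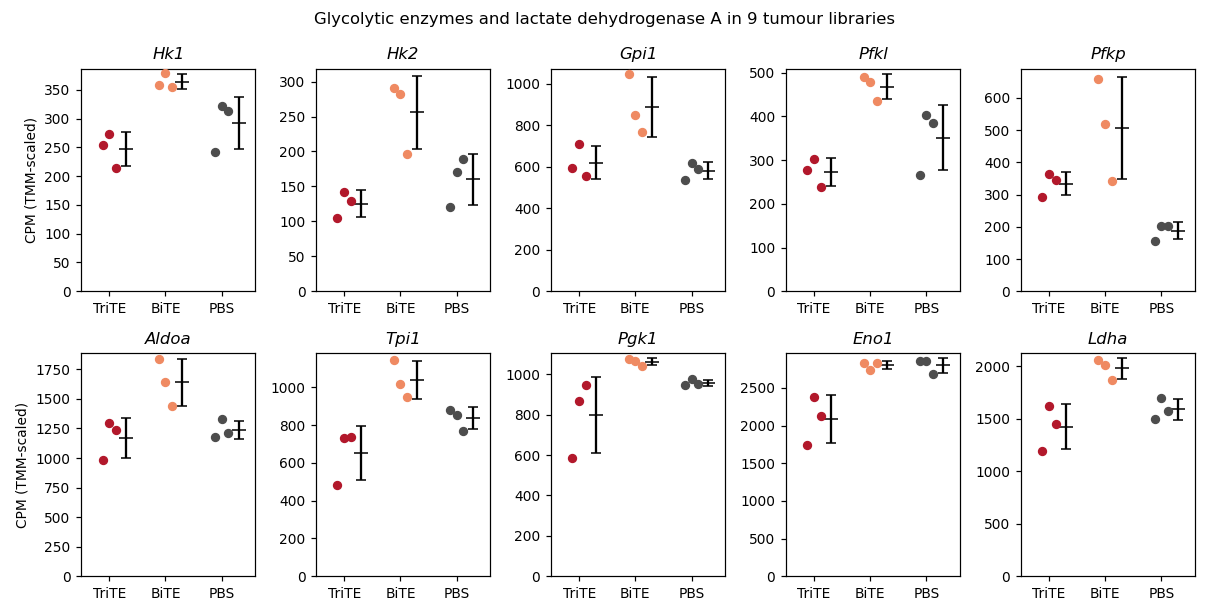
Levels of the 10 genes in each library. The vertical axis of each panel is CPM on a linear scale from 0; points are single libraries of Lipo-TriTE (written TriTE), Lipo-BiTE (written BiTE) and PBS, and bars at the right of the points are the mean ± SD of 3 libraries. The Lipo-BiTE points lie above the PBS points in every panel except that of Eno1, and the Lipo-TriTE points of Pfkp lie above those of PBS.

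Promoter sequences of the genes were taken from RefSeq on the mouse build GRCm38.p6, where each runs from 250 bases before to 50 bases after an annotated start, 300 bases each; the deposited gene models are of another mouse strain, and no measurement here was made on the promoters. ACGTG, the core of the sequence bound by hypoxia-inducible factors, was searched on both strands. It occurred in 6 of the 16 annotated promoters of the 10 genes, belonging to 5 genes, and in 19.6% of all 32851 mouse promoters of this length. GCGTG, the other common form of that core, occurred in 8 of the 16, belonging to 5 genes, and in 32.4% of all promoters. CACGTG, the palindrome known as an E-box and bound by Myc with Max, occurred in 1 of the 16, at the first start of Ldha, and in 7.15% of all promoters. Each CACGTG holds ACGTG on both strands and so counts as 2 overlapping ACGTG places. The promoters of starts 2 and 3 overlap for Aldoa and for Eno1. The ACGTG place of Aldoa and the GCGTG places of Eno1 there are therefore counted in both. The counts of genes have no share over all genes beside them. A match is a description of letters, not a measured binding site.

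Shown are Hk2, Pfkp and Ldha, the hexokinase and the phosphofructokinase that varied most between groups and the last enzyme of the chain. Capitals mark ACGTG on either strand, which reads CACGT where it lies on the opposite strand, and CACGTG where both strands hold it. Hk2 is at chr6:82774405-82774704 on the minus strand and has 2 ACGTG places. Pfkp is at chr13:6648722-6649021 on the minus strand and has no ACGTG and 4 GCGTG places. The first start of Ldha is at chr7:46845554-46845853 on the plus strand and has 5 ACGTG places, of which the 2 CACGTG account for 4.
Hk2: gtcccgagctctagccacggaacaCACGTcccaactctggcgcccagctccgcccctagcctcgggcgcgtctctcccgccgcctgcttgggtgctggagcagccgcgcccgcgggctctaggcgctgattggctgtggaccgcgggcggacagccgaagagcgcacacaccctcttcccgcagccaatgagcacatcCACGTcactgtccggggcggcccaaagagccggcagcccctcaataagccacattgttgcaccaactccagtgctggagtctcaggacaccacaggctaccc
Pfkp: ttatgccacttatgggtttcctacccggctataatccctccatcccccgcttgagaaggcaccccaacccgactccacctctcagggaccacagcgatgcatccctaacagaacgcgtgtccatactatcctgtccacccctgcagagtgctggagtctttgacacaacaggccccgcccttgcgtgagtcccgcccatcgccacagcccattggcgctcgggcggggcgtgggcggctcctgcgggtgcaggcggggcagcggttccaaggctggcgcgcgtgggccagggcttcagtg
Ldha: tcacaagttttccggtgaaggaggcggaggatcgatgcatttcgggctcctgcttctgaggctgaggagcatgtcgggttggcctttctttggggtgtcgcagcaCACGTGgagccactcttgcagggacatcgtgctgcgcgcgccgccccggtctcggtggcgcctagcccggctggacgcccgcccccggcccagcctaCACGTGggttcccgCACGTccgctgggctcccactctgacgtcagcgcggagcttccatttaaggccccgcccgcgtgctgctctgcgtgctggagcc

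Transcripts of the pathway stood highest in Lipo-BiTE tumours: for 9 of the 10 genes the 3 Lipo-BiTE libraries were above the 3 PBS libraries, and for 9 of the 10 they were above the 3 Lipo-TriTE libraries. In Lipo-BiTE against PBS, all 8 named entries had their 3 Lipo-BiTE libraries above their 3 PBS libraries, where 22.7% of all 16596 tested genes had; 19.4% had theirs below. Of these 8, 3 passed the test as higher, Hk2, Gpi1 and Pfkp, and 0 as lower; of all tested genes 13.8% were called higher and 3.22% lower. A call here is an adjusted p under 0.05 in edgeR's quasi-likelihood test with Benjamini-Hochberg adjustment over all tested genes. The median log2 fold change of the 10 genes was 0.36, beside -0.02 over all tested genes. The count of 3 rested on single libraries: it was 1, Pfkp alone, without Lipo-BiTE 1, without Lipo-BiTE 2 and without each of PBS 1, PBS 2 and PBS 3, and it stayed at 3 without Lipo-BiTE 3. Scaling by total counts shifted the median of all genes by -0.13, left 9 of the 10 genes above 0 with a median of 0.22, and left 1 call. The separations of libraries above depend on scaling too. They are in CPM on TMM-scaled totals, where Lipo-BiTE 1 had the lowest factor, 0.87. On total counts Lipo-BiTE libraries overlapped PBS libraries also for Hk1, Hk2 and Pgk1, and Lipo-TriTE libraries also for Pgk1.

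In Lipo-TriTE against PBS, Pfkp was the 1 named entry called, and it was higher; of all tested genes 18.9% were called higher and 14.8% lower. Eno1, added by its description, was called lower. Groups did not overlap for Pfkp, higher in Lipo-TriTE, or for Tpi1, Pgk1 and Eno1, lower in Lipo-TriTE, while 26% of all tested genes were separated upward and 23.4% downward. The median log2 fold change of the 10 genes was -0.25, with 2 above 0, beside 0.00 over all tested genes. Both comparisons with PBS use the same PBS libraries and are not independent of each other.

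Setting the treatments against each other gave the largest median difference of the 3 comparisons. In Lipo-TriTE against Lipo-BiTE, all 10 genes had a log2 fold change below 0, between -1.03 and -0.41, with a median of -0.54 beside -0.01 over all tested genes. The 3 Lipo-TriTE libraries lay below the 3 Lipo-BiTE libraries for 7 of the 8 named entries, where 14.4% of all tested genes were separated downward and 16.1% upward. Of the 8, 4 were called lower, Hk1, Hk2, Pfkl and Tpi1, and 0 higher; of all tested genes 5.21% were called lower and 4.88% higher. Without Lipo-BiTE 2 edgeR's quasi-likelihood test called none of the 8, with all 8 at an unadjusted p under 0.05; the count was 1 without Lipo-TriTE 3, and it was 2 without either of the other Lipo-TriTE libraries. All 10 genes stayed below 0 under total count scaling, which shifted the median of all genes by 0.12, with a median of -0.41 for the 10 and 2 calls.

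**Figure D2:**
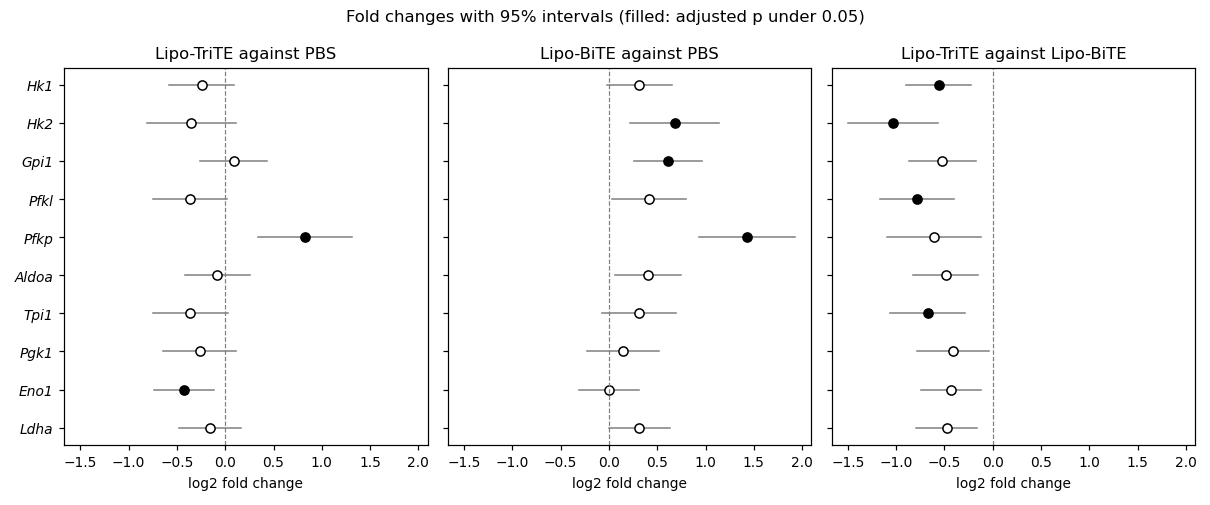
Log2 fold changes of the 10 genes in each comparison. Points are log2 fold changes of edgeR's quasi-likelihood fit, lines their 95% intervals, and filled points have an adjusted p under 0.05. In Lipo-TriTE against Lipo-BiTE every point lies below 0, and in Lipo-BiTE against PBS Pfkp stands apart at 1.43.

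Markers of other cells also differed between groups, but not all in the order of the glycolytic genes, which mostly stood highest in Lipo-BiTE. Macrophage sums on TMM-scaled totals were higher in every Lipo-BiTE library than in any other library, by a narrow margin over Lipo-TriTE. On total counts the sum of Lipo-BiTE 2 was just below that of Lipo-TriTE 2. T cell and B cell sums were highest in Lipo-TriTE libraries, and epithelial, cell cycle and skeletal muscle sums in PBS libraries. All 9 T cell markers were called higher in each of the 3 comparisons, and their summed level was 868 to 1503 CPM in Lipo-TriTE libraries, 200.05 to 375 CPM in Lipo-BiTE libraries and 46.1 to 56.0 CPM in PBS libraries. The 5 neutrophil markers, such as S100a8 and Csf3r, summed to 1273 to 4242 CPM in Lipo-TriTE, 1112 to 6178 CPM in Lipo-BiTE and 130.3 to 292 CPM in PBS libraries, and all 5 were called higher in both comparisons with PBS and none between the treatments. Likewise 7 macrophage markers, of 8 listed, summed to 511 to 657 CPM in Lipo-TriTE, 708.5 to 1627 CPM in Lipo-BiTE and 91.9 to 140.2 CPM in PBS libraries. All 7 were called higher in both comparisons with PBS, and 0 were called between the treatments. The 5 B cell markers summed to 336 to 996 CPM in Lipo-TriTE, 7.42 to 26.2 CPM in Lipo-BiTE and 2.6 to 3.48 CPM in PBS libraries. Epithelial markers, 7 in number, summed to 396 to 677 CPM in Lipo-TriTE, 610.3 to 841 CPM in Lipo-BiTE and 902 to 975 CPM in PBS libraries. Most of that sum was Krt8 and Krt18, called lower in Lipo-TriTE against PBS, whereas Cdh1 averaged 36.9 CPM in Lipo-TriTE, 24.7 CPM in Lipo-BiTE and 4.0 CPM in PBS libraries and was called higher in both comparisons with PBS. For 6 fibroblast markers the sums were 884 to 1391 CPM in Lipo-TriTE, 1303 to 2216 CPM in Lipo-BiTE and 1982 to 3020 CPM in PBS libraries. The 5 endothelial markers summed to 151 to 224 CPM in Lipo-TriTE, 220.3 to 238 CPM in Lipo-BiTE and 135 to 159 CPM in PBS libraries. Of 4 tested, 2 were called higher and 1 lower in Lipo-TriTE against PBS, 1 higher in Lipo-BiTE against PBS and 1 lower between the treatments. Red blood cell markers, 2 of 5 listed, summed to 1.21 to 2.33 CPM in Lipo-TriTE, 1.65 to 30.4 CPM in Lipo-BiTE and 0.594 to 0.951 CPM in PBS libraries, and the 1 tested was called higher in Lipo-BiTE against PBS. Cell cycle genes, 8 in number, summed to 1011 to 1031 CPM in Lipo-TriTE, 875 to 1320 CPM in Lipo-BiTE and 1391 to 1589 CPM in PBS libraries. Skeletal muscle markers were 7 in number, with Tnnc2 at 0 throughout. They summed to 17.9 to 29.4 CPM in Lipo-TriTE, 18.9 to 26.3 CPM in Lipo-BiTE and 30.4 to 33.3 CPM in PBS libraries. Of 2 tested, 1 was called higher and 1 lower in Lipo-TriTE against PBS. In Lipo-BiTE against PBS 0 were called, and in Lipo-TriTE against Lipo-BiTE 1 was called higher. The part of these cell types in the results below was not tested.

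Positions below are those of the deposited C57BL/6NJ gene models, whose assembly version is not stated. Glucose enters the pathway through hexokinases, which phosphorylate it and so hold it in the cell. Hk2 (chr6:85971729-86023093, minus strand), the inducible hexokinase of muscle, fat and many tumours, had 105, 142 and 129 CPM in Lipo-TriTE libraries, 291, 282 and 196 CPM in Lipo-BiTE libraries and 119.9, 170.2 and 189.8 CPM in PBS libraries. Every Lipo-BiTE library was above every other library, and the Lipo-TriTE and PBS libraries overlapped. Hk2 was 0.489-fold in Lipo-TriTE relative to Lipo-BiTE (log2 -1.03 ± 0.21 SE, adjusted p = 0.0146, edgeR's quasi-likelihood test), the deepest fold among the 10 genes in this comparison. The call was lost without Lipo-BiTE 2 (adjusted p = 0.0635) and held without each of the other 5 libraries. Hk2 was also 1.6-fold higher in Lipo-BiTE relative to PBS (log2 0.68 ± 0.21, adjusted p = 0.0482), a call that held without Lipo-BiTE 3 (adjusted p = 0.014) and was lost without any other library, with an adjusted p of up to 0.16. That call was also lost by total counts (0.085) and with only the compared groups in the fit (0.0644). Lipo-TriTE relative to PBS gave -0.35 with a 95% interval of -0.81 to 0.11.

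Hk1 (chr10:63906320-64023907, minus strand), the hexokinase present in nearly every cell, varied less. It had 255, 273 and 214 CPM in Lipo-TriTE libraries, 359, 379 and 354 CPM in Lipo-BiTE libraries and 241, 323 and 314 CPM in PBS libraries. The Lipo-BiTE libraries were the 3 highest and lay close together, at 364 ± 12.9 CPM (SD, n = 3), and PBS 1 fell among the Lipo-TriTE libraries. Hk1 was 0.679-fold in Lipo-TriTE relative to Lipo-BiTE (log2 -0.56 ± 0.15 SE, adjusted p = 0.0425, edgeR's quasi-likelihood test), a call that held without Lipo-BiTE 1 (adjusted p = 0.0461) and was lost without any other library, with an adjusted p of up to 0.136. It held in 4 of 14 alternatives, and DESeq2 size factors (0.0553), total counts (0.12), a filter of 1 CPM in 3 libraries (0.054) and only the compared groups in the fit (0.0853) lost it as well. Lipo-BiTE relative to PBS gave 0.32 with a 95% interval of -0.02 to 0.65, and Lipo-TriTE relative to PBS -0.24 with an interval of -0.58 to 0.09, neither passing the test.

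Hk3, a hexokinase known from myeloid cells and outside the 10 genes, had larger folds relative to PBS than either. It had 49.6, 84.1 and 64.4 CPM in Lipo-TriTE libraries, 201, 154 and 44.1 CPM in Lipo-BiTE libraries and 4.45, 10.4 and 8.61 CPM in PBS libraries. Every treated library was above every PBS library, and Lipo-BiTE 3 was the lowest of the treated ones. Hk3 was 8.38-fold higher in Lipo-TriTE relative to PBS (adjusted p = 0.0016) and 16.9-fold higher in Lipo-BiTE relative to PBS (adjusted p = 0.000913, edgeR's quasi-likelihood test); Lipo-TriTE relative to Lipo-BiTE did not pass with all libraries (adjusted p = 0.205) and passed as lower without Lipo-BiTE 3 (adjusted p = 0.0216). Summed neutrophil markers were 1273, 2649 and 4242 CPM in Lipo-TriTE 1, 2 and 3 and 6178, 2802 and 1112 CPM in Lipo-BiTE 1, 2 and 3. Summed macrophage markers were 511, 657 and 619 CPM in Lipo-TriTE 1, 2 and 3 and 1627, 708.5 and 714 CPM in Lipo-BiTE 1, 2 and 3. The neutrophil sum had the order of Hk3 over the Lipo-BiTE but not the Lipo-TriTE libraries. The macrophage sum had it over the Lipo-TriTE but not the Lipo-BiTE libraries. Both sums, like Hk3, were lower in every PBS library than in every treated library. Their part in the Hk3 values was not tested.

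The balance between isozymes was read as a ratio of CPM per kb inside each library, which needs no scaling between libraries. The level of such a ratio depends on the deposited gene lengths. In CPM alone, Hk1 exceeded Hk2 in every library. Hk2 to Hk1 was 0.804, 1.02 and 1.18 in Lipo-TriTE libraries, 1.58, 1.45 and 1.08 in Lipo-BiTE libraries and 0.971, 1.03 and 1.18 in PBS libraries. All 3 groups overlapped, and the 3 comparisons of this ratio gave p = 0.2 to 0.6 in exact permutation tests. Hk3 to the sum of Hk1 and Hk2 was 0.314 ± 0.0538 in Lipo-TriTE, 0.348 ± 0.189 in Lipo-BiTE and 0.0298 ± 0.00767 in PBS libraries (SD, n = 3 each). Both treatments were separated from PBS on this ratio, by 10.7-fold in Lipo-TriTE and 10.5-fold in Lipo-BiTE. Folds of this and later ratios were taken from means of log2 ratios, not from the means just given. Each comparison had p = 0.1 in a two-sided exact permutation test, the smallest that 3 against 3 libraries allow. The p was 0.2 after Benjamini-Hochberg adjustment over the 12 ratio comparisons.

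Gpi1 (chr7:35173746-35203954, minus strand) is glucose-6-phosphate isomerase, which turns the product of hexokinase into the substrate of phosphofructokinase. It had 593, 708 and 556 CPM in Lipo-TriTE libraries, 1049, 849 and 769.6 CPM in Lipo-BiTE libraries and 536, 618 and 592 CPM in PBS libraries. Lipo-BiTE libraries were the 3 highest, and Lipo-TriTE and PBS libraries overlapped. Gpi1 was 1.53-fold higher in Lipo-BiTE relative to PBS (log2 0.61 ± 0.16 SE, adjusted p = 0.0231, edgeR's quasi-likelihood test), which held without Lipo-BiTE 3 (adjusted p = 0.0128) and was lost without any other library, with an adjusted p of up to 0.0844; total counts also lost it (0.0546). Its value in Lipo-TriTE relative to Lipo-BiTE was -0.52 (adjusted p = 0.0596), called lower by the DESeq2 Wald test (adjusted p = 0.0368) and without a filter on low counts (adjusted p = 0.0228). Other entries of the table described as the same protein held counts equal to 15.9% of those of Gpi1, nearly all in a protein-coding entry on chromosome 8, so reads may be split between them; with their counts added, the last difference was -0.57 and passed (adjusted p = 0.0382).

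Phosphofructokinase commits sugar to glycolysis, and its isozymes gave the clearest difference among the 10 genes. Pfkp (chr13:3345572-3409362, minus strand), the platelet-type subunit, had 294, 363 and 344 CPM in Lipo-TriTE libraries, 659, 521 and 341 CPM in Lipo-BiTE libraries and 157, 203 and 204 CPM in PBS libraries. Every treated library was above every PBS library, and Lipo-BiTE 3 lay within the range of the Lipo-TriTE libraries. Pfkp was 2.7-fold higher in Lipo-BiTE relative to PBS (log2 1.43 ± 0.22 SE, adjusted p = 0.00159, edgeR's quasi-likelihood test), and this call held without each of the 6 libraries in turn. Pfkp was 1.78-fold higher in Lipo-TriTE relative to PBS (log2 0.83 ± 0.22, adjusted p = 0.0148), which was lost without PBS 1 (log2 0.69, adjusted p = 0.0539). Between Lipo-TriTE and Lipo-BiTE it gave -0.60 (adjusted p = 0.109), and without Lipo-BiTE 3 it gave -0.79 and passed (adjusted p = 0.0263).

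Pfkl (chr10:81172580-81206217, minus strand), the liver-type subunit, had 276, 302 and 239 CPM in Lipo-TriTE libraries, 489, 479 and 435 CPM in Lipo-BiTE libraries and 266, 402 and 385 CPM in PBS libraries. Lipo-BiTE libraries were the 3 highest, and PBS 1 lay within the Lipo-TriTE range while PBS 2 and PBS 3 lay above it. Pfkl was 0.582-fold in Lipo-TriTE relative to Lipo-BiTE (log2 -0.78 ± 0.17 SE, adjusted p = 0.0202, edgeR's quasi-likelihood test), lost without Lipo-TriTE 3 (adjusted p = 0.0688) and without Lipo-BiTE 2 (adjusted p = 0.0756). Relative to PBS it gave -0.37 in Lipo-TriTE (adjusted p = 0.128), which passed without PBS 1 (-0.55, adjusted p = 0.021), and 0.41 in Lipo-BiTE (adjusted p = 0.124).

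The ratio of Pfkp to Pfkl per kb was 0.497, 0.562 and 0.674 in Lipo-TriTE libraries, 0.63, 0.509 and 0.367 in Lipo-BiTE libraries and 0.276, 0.236 and 0.248 in PBS libraries. Per kb of deposited gene length, Pfkl was the higher of the pair in all 9 libraries. This order rests on the lengths used. In CPM alone Pfkp was the higher in every Lipo-TriTE library and in Lipo-BiTE 1 and Lipo-BiTE 2. No treated library overlapped PBS on the ratio. The ratio was 2.27-fold higher in Lipo-TriTE relative to PBS and 1.94-fold higher in Lipo-BiTE relative to PBS, each with the smallest p that an exact permutation test of 3 against 3 allows, 0.1, and 0.2 after adjustment. Lipo-TriTE and Lipo-BiTE overlapped on it (exact permutation test, p = 0.5).

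Phosphofructokinase is switched on by a fructose bisphosphate that enzymes of the Pfkfb family make and break down, and 5 regulators of this step were listed. Of these, 2 were called higher and none lower in each comparison with PBS, and none was called between the treatments, where 1 had an unadjusted p under 0.05 and DESeq2 called 0. Of all tested genes, 18.9% were called higher in Lipo-TriTE against PBS and 13.8% in Lipo-BiTE against PBS. Pfkfb3, the isozyme whose kinase activity most exceeds its phosphatase activity, averaged 112 ± 21.8 CPM in Lipo-TriTE, 229 ± 137 CPM in Lipo-BiTE and 35.1 ± 4.09 CPM in PBS libraries (SD, n = 3 each). It was 3.18-fold higher in Lipo-TriTE relative to PBS (adjusted p = 0.0125, but 0.0523 without PBS 1 and 0.0857 without a filter on low counts) and 6.53-fold higher in Lipo-BiTE relative to PBS (adjusted p = 0.00219, edgeR's quasi-likelihood test). Pfkfb4 averaged 46.1 ± 2.48 CPM in Lipo-TriTE, 65.9 ± 34.2 CPM in Lipo-BiTE and 16.1 ± 3.62 CPM in PBS libraries, 2.86-fold higher in Lipo-TriTE (adjusted p = 0.0069) and 4.09-fold higher in Lipo-BiTE (adjusted p = 0.00282) than in PBS. As with Hk3, Lipo-BiTE 3 was the lowest Lipo-BiTE library for both, at 77.2 CPM of Pfkfb3 and 33.2 CPM of Pfkfb4. Without Lipo-BiTE 3, Pfkfb3 passed as lower in Lipo-TriTE relative to Lipo-BiTE (adjusted p = 0.0032), where it had not with all libraries (adjusted p = 0.143).

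**Figure D3:**
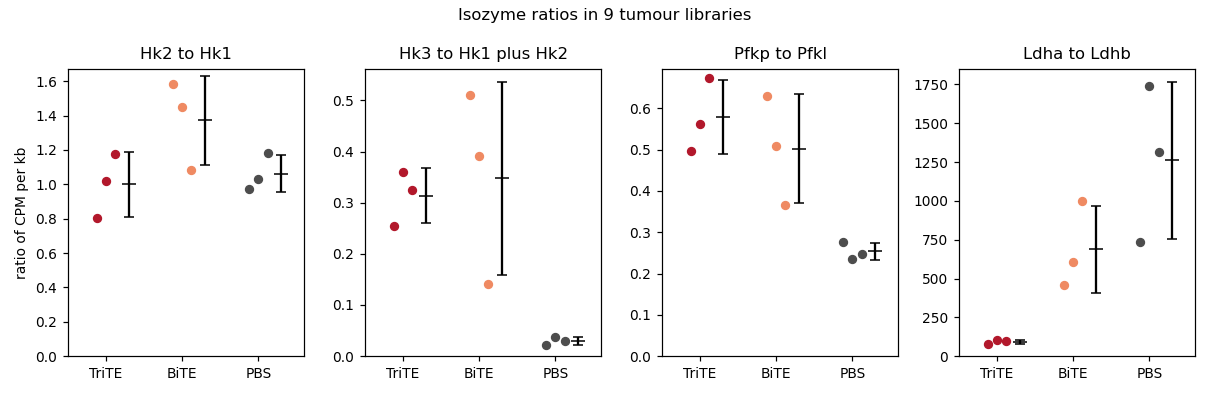
Ratios of isozyme levels within each library. The vertical axis of each panel is a ratio of CPM per kb on a linear scale from 0; points are single libraries of Lipo-TriTE (written TriTE), Lipo-BiTE (written BiTE) and PBS, and bars the mean ± SD of 3 libraries. PBS libraries lie at 0.236 to 0.276 for Pfkp to Pfkl, below all treated libraries, and Lipo-TriTE libraries lie at 77.2 to 101 for Ldha to Ldhb, below all others.

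Aldolase splits the product of phosphofructokinase into a pair of triose phosphates, which triose phosphate isomerase, encoded by Tpi1, interconverts. Aldoa (chr7:136187991-136193487, minus strand), the aldolase of muscle and most tissues, had 979.7, 1292 and 1241 CPM in Lipo-TriTE libraries, 1842, 1639.7 and 1439.5 CPM in Lipo-BiTE libraries and 1181, 1326 and 1215 CPM in PBS libraries. Lipo-BiTE libraries were the 3 highest, and Lipo-TriTE and PBS libraries overlapped. No comparison of Aldoa passed edgeR's quasi-likelihood test, with a log2 fold change of 0.40 in Lipo-BiTE relative to PBS (adjusted p = 0.0969), -0.49 in Lipo-TriTE relative to Lipo-BiTE (adjusted p = 0.0689) and -0.08 in Lipo-TriTE relative to PBS (adjusted p = 0.708), the last with a sign that changed without Lipo-TriTE 1. In Lipo-TriTE relative to Lipo-BiTE it was called lower by the DESeq2 Wald test (adjusted p = 0.0438) and without a filter on low counts (adjusted p = 0.0316), and by none of the other 12 alternatives.

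Tpi1 (chr6:131501186-131504752, minus strand) had 485, 731 and 738 CPM in Lipo-TriTE libraries, 1147, 1021 and 948 CPM in Lipo-BiTE libraries and 882, 857 and 769.9 CPM in PBS libraries. The groups did not overlap at all, with Lipo-TriTE lowest and Lipo-BiTE highest. Tpi1 was 0.627-fold in Lipo-TriTE relative to Lipo-BiTE (log2 -0.67 ± 0.18 SE, adjusted p = 0.0357, edgeR's quasi-likelihood test), and this call was lost without each of the 6 libraries in turn, with adjusted p between 0.0505 and 0.099, by total counts (0.0758) and with only the compared groups in the fit (0.0962). Relative to PBS, Tpi1 gave -0.36 in Lipo-TriTE (95% interval -0.75 to 0.02) and 0.31 in Lipo-BiTE (interval -0.07 to 0.70), neither passing.

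Pgk1 and Eno1, the phosphoglycerate kinase that makes ATP and the enolase that makes phosphoenolpyruvate, were the most even between Lipo-BiTE and PBS. Pgk1 (chrX:105914158-105933142, plus strand) had 585, 867 and 947 CPM in Lipo-TriTE libraries, 1078, 1065 and 1043 CPM in Lipo-BiTE libraries and 949, 977 and 954 CPM in PBS libraries. Lipo-TriTE 3 came just under the lowest PBS library, and Lipo-TriTE 1 lay far below the other 8 libraries. No comparison of Pgk1 passed the test, and other entries described as the same protein held counts equal to 7.55% of its own. Eno1 (chr4:159732583-159748326, plus strand) had 1748, 2379.6 and 2124 CPM in Lipo-TriTE libraries, 2831, 2745 and 2831 CPM in Lipo-BiTE libraries and 2858, 2859.7 and 2687 CPM in PBS libraries. All 3 Lipo-TriTE libraries lay below the other 6, which overlapped.

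Eno1 was 0.744-fold in Lipo-TriTE relative to PBS (log2 -0.43 ± 0.14 SE, adjusted p = 0.0373, edgeR's quasi-likelihood test). The call held without Lipo-TriTE 2 (adjusted p = 0.0386) and was lost without any other library, with an adjusted p of up to 0.15. It was also lost with DESeq2 size factors (0.0608), total counts (0.0533), a filter of 1 CPM in 3 libraries (0.0528) and only the compared groups in the fit (0.0565), and it held in 4 of 14 alternatives. Its value was the same in Lipo-TriTE relative to Lipo-BiTE, -0.43, and did not pass there (adjusted p = 0.0797). In Lipo-BiTE relative to PBS Eno1 gave 0.00, with a 95% interval of -0.31 to 0.31, and -0.13 under total count scaling, the size of the shift of all genes.

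Pkm, pyruvate kinase, is not one of the 10 genes and stood above all of them per kb. Per kb it averaged 1304 CPM in Lipo-TriTE, 1830.2 CPM in Lipo-BiTE and 1663 CPM in PBS libraries. It passed in no comparison of edgeR's quasi-likelihood test, with -0.35 in Lipo-TriTE relative to PBS (adjusted p = 0.109), 0.14 in Lipo-BiTE relative to PBS (adjusted p = 0.576) and -0.49 in Lipo-TriTE relative to Lipo-BiTE (adjusted p = 0.0734); the last was called lower by the DESeq2 Wald test (adjusted p = 0.0481) and without a filter on low counts (adjusted p = 0.0182). Gapdh, the enzyme between the triose phosphates and Pgk1, could not be measured with confidence, since 221 other entries described as the same protein held counts equal to 337% of its own; its own entry had 121, 181 and 139 CPM in Lipo-TriTE, 286, 191 and 149.7 CPM in Lipo-BiTE and 158, 185 and 184 CPM in PBS libraries.

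Ldha (chr7:49511849-49525997, plus strand), the lactate dehydrogenase subunit that prevails in tumours and fast muscle, had 1197, 1622 and 1451 CPM in Lipo-TriTE libraries, 2058, 2013 and 1868 CPM in Lipo-BiTE libraries and 1499, 1697 and 1573 CPM in PBS libraries. Lipo-BiTE libraries were the 3 highest, and Lipo-TriTE and PBS libraries overlapped. Ldha passed in no comparison of edgeR's quasi-likelihood test, with 0.32 in Lipo-BiTE relative to PBS (adjusted p = 0.156), -0.48 in Lipo-TriTE relative to Lipo-BiTE (adjusted p = 0.0604) and -0.16 in Lipo-TriTE relative to PBS (adjusted p = 0.427). In Lipo-TriTE relative to Lipo-BiTE it was called lower by the DESeq2 Wald test (adjusted p = 0.0292) and without a filter on low counts (adjusted p = 0.0341), and by none of the other 12 alternatives. Its profile over the libraries was nearly that of Aldoa, as given below.

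Ldhb, the other common subunit and abundant in heart and in resting lymphocytes, was rare and highest in Lipo-TriTE. It had 8.45, 8.76 and 8.16 CPM in Lipo-TriTE libraries, 2.45, 1.81 and 1.02 CPM in Lipo-BiTE libraries and 1.11, 0.531 and 0.653 CPM in PBS libraries. The 3 Lipo-TriTE libraries lay close together and far above the other 6. Ldhb was 11.1-fold higher in Lipo-TriTE relative to PBS (adjusted p = 0.000222) and 4.81-fold higher in Lipo-TriTE relative to Lipo-BiTE (adjusted p = 0.00844, edgeR's quasi-likelihood test). In Lipo-BiTE relative to PBS it gave 1.20 (adjusted p = 0.0792) and passed without Lipo-BiTE 3 (adjusted p = 0.0342).

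Ldha to Ldhb per kb was 77.2, 101 and 96.9 in Lipo-TriTE libraries, 458, 608 and 999.7 in Lipo-BiTE libraries and 734, 1741 and 1312 in PBS libraries. In PBS 2, Ldhb had 0.531 CPM, where 3 counts correspond to 0.183 CPM. The ratios outside Lipo-TriTE, and the folds of Ldhb relative to those groups, therefore rest on few counts and are imprecise. Ldha prevailed in every library, and the Lipo-TriTE libraries were the 3 lowest. The ratio was 0.0767-fold in Lipo-TriTE relative to PBS and 0.139-fold relative to Lipo-BiTE, each with p = 0.1 in an exact permutation test and 0.2 after adjustment over the 12 ratio comparisons. Lipo-BiTE and PBS overlapped (exact permutation test, p = 0.2). T cell and B cell marker sums were likewise highest in the 3 Lipo-TriTE libraries, and their part in the Ldhb values was not tested.

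Glucose crosses the membrane through transporters of the Slc2a family, and lactate through those of the Slc16a family. Among 17 listed genes of glucose and lactate transport and pyruvate fate, 15 were tested. In Lipo-BiTE against PBS 4 were called higher and 0 lower, in Lipo-TriTE against PBS 2 higher and 3 lower, and in Lipo-TriTE against Lipo-BiTE 0 higher and 3 lower. Over all tested genes 13.8% were called higher in Lipo-BiTE against PBS, 18.9% higher and 14.8% lower in Lipo-TriTE against PBS, and 5.21% lower in Lipo-TriTE against Lipo-BiTE. Slc2a1 (GLUT1), the transporter of most proliferating cells, had 266, 431 and 309.7 CPM in Lipo-TriTE libraries, 912, 831 and 513 CPM in Lipo-BiTE libraries and 228, 394 and 386 CPM in PBS libraries. Lipo-BiTE libraries were the 3 highest, and Lipo-TriTE and PBS libraries overlapped, as for Hk2. Slc2a1 was 2.24-fold higher in Lipo-BiTE relative to PBS (adjusted p = 0.0167), lost without Lipo-BiTE 1 (0.0611), Lipo-BiTE 2 (0.0587) or PBS 1 (0.0512). It was 0.446-fold in Lipo-TriTE relative to Lipo-BiTE (adjusted p = 0.0269, edgeR's quasi-likelihood test), lost without Lipo-TriTE 1 (0.0754), Lipo-TriTE 3 (0.0902) or Lipo-BiTE 2 (0.0943).

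Slc2a3 (GLUT3), a high-affinity transporter of neurons and leukocytes, was higher in both treatments. It averaged 139 ± 29.1 CPM in Lipo-TriTE, 172 ± 101 CPM in Lipo-BiTE and 17 ± 5.7 CPM in PBS libraries (SD, n = 3 each), 8.17-fold higher in Lipo-TriTE (adjusted p = 0.000922) and 10.1-fold higher in Lipo-BiTE (adjusted p = 0.00107) than in PBS. Slc2a6, a transporter induced in inflammatory macrophages, was 10.5-fold higher in Lipo-TriTE (adjusted p = 0.000791) and 12.2-fold higher in Lipo-BiTE (adjusted p = 0.00109, edgeR's quasi-likelihood test). Lipo-BiTE 3 was again the lowest Lipo-BiTE library for both, at 67.2 CPM of Slc2a3 and 13 CPM of Slc2a6.

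Lactate carriers were measured as well. Slc16a3 (MCT4), which exports lactate from glycolytic cells, had 262, 411 and 316 CPM in Lipo-TriTE libraries, 787, 651 and 498 CPM in Lipo-BiTE libraries and 239.7, 361 and 341 CPM in PBS libraries. It was 2.06-fold higher in Lipo-BiTE relative to PBS (adjusted p = 0.0102) and 0.51-fold in Lipo-TriTE relative to Lipo-BiTE (adjusted p = 0.0243, edgeR's quasi-likelihood test), the second lost without Lipo-TriTE 1 (0.0658), Lipo-TriTE 3 (0.0749) or Lipo-BiTE 2 (0.0797). Slc16a1 (MCT1), which carries lactate both ways, had 193, 276 and 228 CPM in Lipo-TriTE libraries, 223, 312 and 378 CPM in Lipo-BiTE libraries and 492, 442 and 431 CPM in PBS libraries. PBS libraries were the 3 highest of Slc16a1, and it was 0.51-fold in Lipo-TriTE relative to PBS (adjusted p = 0.00419). In Lipo-BiTE relative to PBS it gave -0.58 (adjusted p = 0.0711), passing without Lipo-BiTE 3 (adjusted p = 0.0189), and in Lipo-TriTE relative to Lipo-BiTE -0.39 (adjusted p = 0.248), passing without Lipo-BiTE 1 (adjusted p = 0.0473). Bsg, the chaperone that brings both carriers to the membrane, was 0.641-fold in Lipo-TriTE relative to Lipo-BiTE (adjusted p = 0.0172), lost without Lipo-TriTE 1 (0.0541), Lipo-TriTE 2 (0.0558) or Lipo-BiTE 2 (0.073). Total counts (0.0505) and only the compared groups in the fit (0.063) lost it as well.

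Several of the 10 genes are textbook targets of the hypoxia-inducible factor HIF1, and 15 further hypoxia-inducible genes and HIF factors, of 16 listed, were tested. In Lipo-TriTE against Lipo-BiTE 9 of the 15 were called lower and 0 higher, with a median log2 fold change of -0.79. In Lipo-BiTE against PBS 5 were called higher and 0 lower, with a median of 0.56, and in Lipo-TriTE against PBS 2 were higher and 3 lower, with a median of -0.26. Of all tested genes, 4.88% were called higher and 5.21% lower in Lipo-TriTE against Lipo-BiTE. In Lipo-BiTE against PBS the shares were 13.8% higher and 3.22% lower, and in Lipo-TriTE against PBS 18.9% higher and 14.8% lower. Ca9, the carbonic anhydrase that is a standard hypoxia marker, had 16.4, 17.1 and 22.3 CPM in Lipo-TriTE libraries, 42.9, 65.7 and 66.7 CPM in Lipo-BiTE libraries and 28.1, 43.5 and 47.2 CPM in PBS libraries. Lipo-TriTE libraries were the 3 lowest, and Ca9 was 0.318-fold in Lipo-TriTE relative to Lipo-BiTE (log2 -1.65, adjusted p = 0.00435) and changed by -1.09 relative to PBS (adjusted p = 0.00576, edgeR's quasi-likelihood test). P4ha2, a collagen prolyl hydroxylase, was 0.474-fold in Lipo-TriTE relative to Lipo-BiTE (adjusted p = 0.00841) and changed by -1.14 relative to PBS (adjusted p = 0.00125).

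Ero1l, an oxidase of the endoplasmic reticulum, had 93, 141 and 157 CPM in Lipo-TriTE libraries, 394, 357 and 190.2 CPM in Lipo-BiTE libraries and 97.7, 119 and 135 CPM in PBS libraries. It was 2.67-fold higher in Lipo-BiTE relative to PBS (adjusted p = 0.00597, edgeR's quasi-likelihood test). In Lipo-TriTE it was 0.415-fold relative to Lipo-BiTE (adjusted p = 0.0197), a call lost without Lipo-TriTE 2 (0.0501) or Lipo-BiTE 2 (0.0744). Egln3, an oxygen-sensing prolyl hydroxylase that is itself induced by HIF, gave -1.06 in Lipo-TriTE relative to Lipo-BiTE (adjusted p = 0.0145), lost without Lipo-BiTE 2 (0.0566). Myc, a transcription factor that drives many glycolytic genes, had 63.5, 26.7 and 20.3 CPM in Lipo-TriTE libraries, 24.5, 18.1 and 16.8 CPM in Lipo-BiTE libraries and 3.12, 5.25 and 5.23 CPM in PBS libraries. It was 8.08-fold higher in Lipo-TriTE relative to PBS (log2 3.01, adjusted p = 0.000631, and log2 2.38 without Lipo-TriTE 1) and 4.34-fold higher in Lipo-BiTE relative to PBS (adjusted p = 0.00655).

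The citric acid cycle, gluconeogenesis and the pentose phosphate pathway lie next to glycolysis. Of 17 enzymes of the citric acid cycle, edgeR's quasi-likelihood test called 0 in Lipo-BiTE against PBS and 0 between the treatments. In each of these, 2 had an unadjusted p under 0.05, and DESeq2 called 0 against PBS and 1, higher in Lipo-TriTE, between the treatments. Dlst was called lower in Lipo-TriTE against PBS (log2 -0.38, adjusted p = 0.0318), a call lost without each of the 6 libraries in turn. None of 4 tested gluconeogenic enzymes was called in any comparison by edgeR or DESeq2, and 1 had an unadjusted p under 0.05, in Lipo-TriTE against PBS. Of 8 enzymes of the pentose phosphate pathway, which branches off after the hexokinase step, 2 rose and 1 fell in Lipo-TriTE against PBS, where 18.9% of all tested genes were called higher and 14.8% lower, and 1 rose in Lipo-BiTE against PBS, where 13.8% were called higher. Taldo1, transaldolase, led them, with 244, 263 and 271 CPM in Lipo-TriTE libraries, 339, 198 and 131 CPM in Lipo-BiTE libraries and 99.9, 93.6 and 89.1 CPM in PBS libraries. It was 2.75-fold higher in Lipo-TriTE relative to PBS (adjusted p = 0.00272) and 2.36-fold higher in Lipo-BiTE relative to PBS (adjusted p = 0.0111). Among 11 tested further glycolytic enzymes and isozymes, Lipo-TriTE against PBS had 4 called higher and 1 lower, Lipo-BiTE against PBS had 2 higher and 0 lower, and the treatments differed in 1, higher in Lipo-TriTE. Over all tested genes, 18.9% were higher and 14.8% lower, 13.8% and 3.22%, and 4.88% and 5.21%, in the same order of comparisons. In that order DESeq2 called 4 of the 11 higher and 0 lower, 4 and 0, and 1 and 1.

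**Figure D4:**
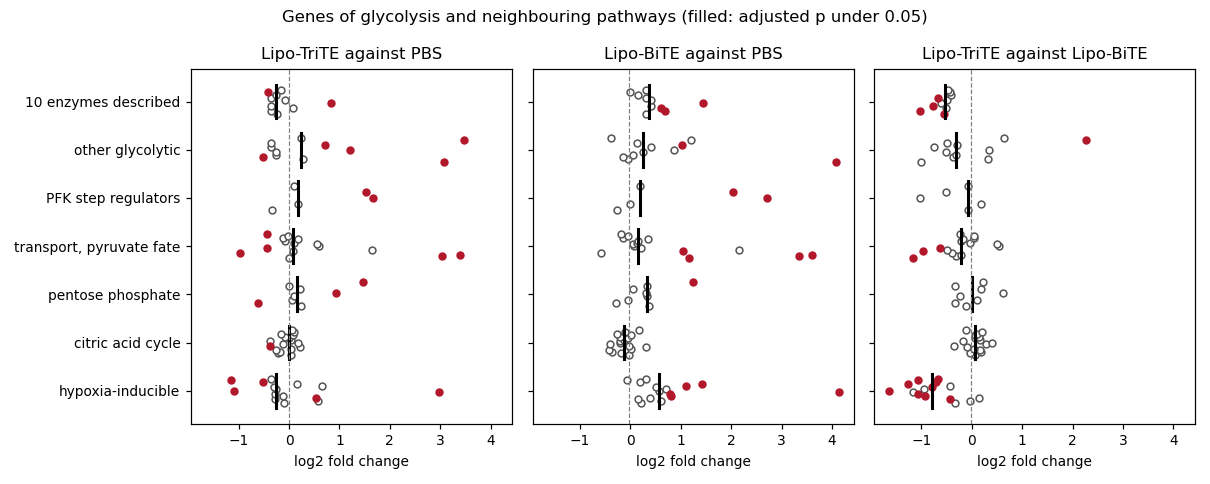
Log2 fold changes of the 10 genes and of the lists of related genes in each comparison. Dots are genes, filled where the adjusted p is under 0.05, the black bar is the median of the list and the dashed line is the median of all tested genes. In Lipo-TriTE against Lipo-BiTE the medians of the 10 genes, -0.54, and of the hypoxia-inducible list, -0.79, lie furthest below the dashed line, and the citric acid cycle lies near it in all 3 comparisons.

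Likeness between profiles was measured as the root mean square difference of centred log2 CPM over the 9 libraries, as a description. Aldoa and Ldha were the closest pair of the 10 genes, at 0.07, followed by Hk1 and Pfkl at 0.11 and Pgk1 and Eno1 at 0.12. Hk2 was closest to Pfkl, at 0.21. Pfkp was the most distant from each of the other 9 genes, at 0.40 from Gpi1, the closest to it, and 0.68 from Eno1. Over 9146 candidate genes, those closest to the mean profile of the 10 were Ssfa2 at 0.08, Gsn and Pgm2 at 0.09 each, Atp2b1 at 0.09 and Rnh1 at 0.10. The candidates left out every gene of the pathway and marker lists, so Pkm, Slc16a3 and the hypoxia-inducible genes were not compared.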

How the data were processed

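The authors deposited raw read counts per gene, whole numbers in a table of 44806 entries with 9 count columns, per the file headers and the values. For aligner, counter, assembly version and strand setting, nothing is given in the sources used here. The gene models are those of C57BL/6NJ. Columns marked untreated were taken as the PBS libraries of the same number, an inference. Unnamed loci, 3710 of the entries, took 1.17% to 2.14% of the counts. The 10 genes and the lists were chosen with earlier results of these data known.

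Counts were fitted in R 4.3.3 with edgeR 4.0.16 (TMM scaling, filterByExpr, robust quasi-likelihood F test over all 9 libraries, 1 mean per group, 6 residual degrees of freedom), with Benjamini-Hochberg adjustment over 16596 tested genes. All 10 genes passed the filter. The procedure was tested on simulated counts. CPM is on TMM-scaled totals, and 3 counts in a library correspond to 0.148 to 0.228 CPM. Log2 CPM used a prior count of 2. SEs were derived from each fold change with its F statistic. All pairs of replicates differed by more than sampling noise, PBS 2 and PBS 3 the least, with a chi-square of 4.98 for each degree of freedom, against 26.6 to 95.5 in the other pairs. Counts carry no molecular identifiers, so depth bounds counting error only.

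All 10 genes were named, with Gapdh, Pkm, Ldhb, Slc2a1 and Slc16a3 and up to 4 called genes of each other list per comparison, by smallest p; some of these are given as counts only. Ratios were tested by exact two-sided permutation. Candidates for likeness to the 10 genes averaged at least 10 CPM and stood outside all lists. Predicted gene models and unnamed loci were left out. Alternatives were DESeq2 1.42.0, other scalings and filters, the 2 compared groups alone, a replicate block and leaving out each library; adding the description-matched entries and the counts of copies was chosen after seeing the data. Pgam1 and Vegfa were not analysed here.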

Additional observations from a re-analysis of the deposited data

How the results depend on the processing

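Of 1637 values of single genes under the alternatives, 1478 kept their side of the threshold, 135 lost a call and 24 gained one. The sign differed from the reported one in 26, none of them called in either fit, among them Eno1 in Lipo-BiTE against PBS under 6 alternatives and Aldoa in Lipo-TriTE against PBS under 1. Of the 8 named entries, 1 was called in Lipo-TriTE against PBS, 3 in Lipo-BiTE against PBS and 4 between Lipo-TriTE and Lipo-BiTE. With the 2 entries matched by description, the first count was 2. Total counts without TMM gave 1 for Lipo-BiTE against PBS and 2 between the treatments. For Lipo-TriTE against Lipo-BiTE the count was 8 without a filter on low counts, 2 with only the compared groups in the fit and 7 with the DESeq2 Wald test. Leaving out 1 library gave 1 to 1, 1 to 3 and 0 to 3 calls in the 3 comparisons; in the first, the call without PBS 1 was Pfkl, lower, in place of Pfkp, higher. Over all genes, 534 were called lower in Lipo-BiTE against PBS, and 988 by total counts, 839 without a filter, 282 with the replicate block and 995 by DESeq2. In Lipo-TriTE against Lipo-BiTE 865 were lower, and 451 by total counts, 1455 without a filter and 510 with only the compared groups; 810 were higher, and 1538 without a filter and 1475 by DESeq2. Leaving out 1 library gave 2575 to 2925 higher and 1391 to 2222 lower genes in Lipo-TriTE against PBS, 1455 to 2656 higher and 80 to 971 lower genes for Lipo-BiTE against PBS, and 276 to 901 higher and 158 to 1031 lower genes between the treatments. The log2 ratio of Hk2 to Hk1 in Lipo-TriTE against PBS ranged from -0.23 to 0.051, the last without Lipo-TriTE 1. Hk3 to Hk1 plus Hk2 in Lipo-TriTE against Lipo-BiTE ranged from -0.52 without Lipo-BiTE 3 to 0.40, with -0.08 without Lipo-TriTE 2 and -0.01 without Lipo-TriTE 3. The cause of these changes was not tested. Replicate numbers did not pair the libraries: same-numbered libraries deviated with correlations of -0.19 to 0.08 over 9 pairs of libraries, 0 of them over 0.1, and 2 of 9 libraries correlated best with their own number. With the replicate block 1, 2 and 2 of the 8 named entries were called in the same order of comparisons.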
